A study of Arabidopsis thaliana with 32 samples.

Results

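Photorespiration enzymes were followed in etiolated Arabidopsis thaliana seedlings before and after their first hours of white light, in plants with and without the transcription factor HY5. The set was a list of 10 gene identifiers of the core pathway, taken wherever they occurred in a deposited table of 19685 genes. It comprised PGLP1, GOX1, CAT2, GGAT1, AGT1, GLDP1, GLDT, SHM1, HPR1 and GLYK. GLDP1 and GLDT are subunits of the same enzyme, and CAT2 is a catalase. Of the 10 genes, 9 were in the table. PGLP1 had no row there and was not analysed here.

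RNA was sequenced from 32 libraries of whole seedlings, 40 per sample, all of the Columbia ecotype. Seedlings were stratified for 7 days at 4 °C, given 1 h of white light, kept in the dark for 3 days at 21 °C, and sampled in the dark or after 1.5 h or 4 h of 100 µmol m−2 s−1 light from blue, red and far-red LEDs. OX carried 35S:FLASH-HY5, VP16 carried 35S:FLASH-HY5-VP16 (HY5 fused to a viral activation domain) and SRDX carried 35S:FLASH-HY5-SRDX (HY5 fused to a repression domain). These 3 lines were in the hy5/hy5 mutant background, hy5 was the mutant without a transgene, and Col was the wild type. There were 3 libraries of OX, VP16, hy5 and Col at both of the first times (dark and 1.5 h) and 2 of SRDX at all 3 times, and hy5 at 4 h had 2. The 35S promoter drives expression in most tissues and at most stages. HY5 protein is normally degraded in the dark, and protein was not measured here. The labels name neither the hy5 allele nor how many transgenic lines were sampled, and do not say that replicates came from separate sowings, so the p-values cover only the spread among these samples, which may be technical.

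Photorespiration recovers carbon from 2-phosphoglycolate, the compound that Rubisco makes when it fixes oxygen instead of carbon dioxide. The route runs through chloroplasts, peroxisomes and mitochondria, ends with glycerate returned to the Calvin cycle, and releases carbon dioxide and ammonia in mitochondria. Its enzymes are abundant in green leaves and have little substrate in seedlings grown in the dark. HY5 is a bZIP transcription factor that promotes seedling development in light and binds DNA at ACGT cores, of which the G-box CACGTG is the best known form.

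Levels are given as CPM, read counts scaled to library size by the authors, and differences as log2(CPM + 1) ± the standard error of a limma fit over all 32 libraries. A gene was called where its Benjamini-Hochberg adjusted p over 19685 genes was below 0.05. Libraries held 7499581 to 21420680 reads, and no measured enzyme had fewer than 1327 reads in any library. HY5 RNA itself checked the labels of the 3 transgenic lines in the dark. It did not separate hy5 from Col there (-0.16 ± 0.13, adjusted p = 0.568 in limma) and did at 1.5 h (-3.05 ± 0.13). In the dark HY5 had 16907, 13613 and 12317 CPM in OX, 1946, 2619 and 2449 CPM in VP16, 1082 and 969 CPM in SRDX, 21.4, 19.4 and 24.4 CPM in hy5 and 21.7, 22.0 and 30.0 CPM in Col. At 1.5 h it had 8198 to 10357 CPM in OX, 2179 to 2423 CPM in VP16, 759.5 to 807 CPM in SRDX, 25.2, 25.1 and 25.1 CPM in hy5 and 208, 207 and 232 CPM in Col. At 4 h it had 908 and 925 CPM in SRDX and 85.4 and 79.1 CPM in hy5. These hy5 values are above those of every other hy5 library and of dark Col and below those of Col at 1.5 h, and there was no Col library at 4 h to set beside them. All 4 markers of green cotyledons were detected in every group, and their summed level ranged from 5396 to 22993 CPM, against 92.3 to 207 CPM for 4 root markers and 1.08 to 16.0 CPM for 3 seed storage markers. In bulk seedlings, more cells of a type and more RNA per cell cannot be told apart.

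Libraries of 1 group were not evenly spread. Replicate 1 was the highest library for 8 of the 9 enzymes in hy5 at 1.5 h, for 8 in hy5 at 4 h (1 of 2 libraries) and for 7 in Col at 1.5 h. Replicate 2 was the highest for 7 in OX at 1.5 h, and replicate 3 for 7 in dark hy5 and for 7 in dark Col. Replicate 3 of VP16 at 1.5 h was the lowest for 8, and replicate 1 of OX at 1.5 h, replicate 1 of dark Col and replicate 3 of Col at 1.5 h were the lowest for 7 each. Results that rest on these libraries are given with and without them.

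Positions are those of the annotated genes on TAIR10.1. GOX1 (AT3G14420) is at chr3:4821391-4824178 on the plus strand, CAT2 (AT4G35090) at chr4:16700312-16703504 on the minus strand, GGAT1 (AT1G23310) at chr1:8268385-8272021 on the minus strand and AGT1 (AT2G13360) at chr2:5538740-5541479 on the minus strand. GLDP1 (AT4G33010) is at chr4:15926652-15931422 on the minus strand, GLDT (AT1G11860) at chr1:4001113-4003748 on the plus strand and SHM1 (AT4G37930) at chr4:17831731-17835017 on the minus strand. HPR1 (AT1G68010) is at chr1:25493193-25496053 and GLYK (AT1G80380) at chr1:30217116-30220595, both on the plus strand. GOX1 and its neighbour GOX2 are 377 bases apart and share 92.4% of their coding bases, with an identical run of 68 bases, so their separate values are uncertain. The coding sequences of PGLP1 and a second copy of it 55871 bases away, PGLP1B, are identical over 1089 bases, and neither had a row.

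The 250 bases before the annotated start of each measured enzyme gene were searched on both strands for CACGTG, for its core ACGT, and for GATAAG, the I-box of light-regulated promoters. CACGTG occurred in 2 of 9 windows, GGAT1 and GLDP1, against 7.6% of 19129 promoters of the same length. ACGT, which every CACGTG contains, occurred in 3 of 9, against 44.7%, and GATAAG in 0 of 9, against 12.5%. The 3 windows that held a match are shown, as RefSeq gives the TAIR10.1 genome. They were picked for the match alone, and a tie between matches and expression was not tested. The windows read toward the gene, with matches in capitals. The first base of CACGTG lies 82 bases before the start of GGAT1 and 33 bases before that of GLDP1, and the ACGT matches lie 57 and 32 bases before the start of HPR1.

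GGAT1, chr1:8272022-8272271, minus strand: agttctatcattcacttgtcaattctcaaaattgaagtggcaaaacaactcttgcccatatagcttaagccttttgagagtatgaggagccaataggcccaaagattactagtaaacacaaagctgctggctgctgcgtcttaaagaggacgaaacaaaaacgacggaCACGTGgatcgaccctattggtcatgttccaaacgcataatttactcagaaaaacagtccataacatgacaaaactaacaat
GLDP1, chr4:15931423-15931672, minus strand: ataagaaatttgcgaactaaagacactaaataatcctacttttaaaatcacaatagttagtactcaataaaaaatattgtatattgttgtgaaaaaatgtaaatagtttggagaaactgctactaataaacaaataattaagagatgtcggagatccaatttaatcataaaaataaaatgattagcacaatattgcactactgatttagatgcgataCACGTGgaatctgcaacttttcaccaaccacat
HPR1, chr1:25493078-25493192, plus strand: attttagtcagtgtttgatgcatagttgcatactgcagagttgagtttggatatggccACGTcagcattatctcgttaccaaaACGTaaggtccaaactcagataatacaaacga

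The HPR1 stretch is 115 bases long because the rest of its window lies in the transcript of the gene upstream. GLYK starts 13 bases after the annotated end of its upstream neighbour on the same strand.

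Within 1.5 h of light, most of the 9 measured enzymes rose and GLYK, the last of the route, fell. The labels name no sample kept dark for a further 1.5 h or 4 h, so light and elapsed time cannot be told apart. GOX1, CAT2, GGAT1, GLDP1, GLDT, SHM1 and HPR1 rose in all 5 genotypes, AGT1 rose in SRDX, hy5 and Col, and GLYK fell in all 5. Of the 9 enzymes, 7 rose and 1 fell in OX, against 23.6% and 22.6% of all genes, and 7 rose and 1 fell in VP16, against 22.4% and 22.1%. In the other groups 8 rose and 1 fell, in SRDX, against 13.9% and 12.7%, in hy5, against 16.4% and 15.7%, and in Col, against 18% and 17.9%. The median difference of the 9 was 1.20 in OX, 0.82 in VP16, 1.10 in SRDX, 1.47 in hy5 and 1.11 in Col, while the median over all genes lay between -0.0225 and 0.00539. The summed green cotyledon markers moved with this result. They had 13911 to 16655 CPM at 1.5 h and 7569.9 to 9039.9 CPM in the dark in hy5, and 9704 to 14119.7 CPM at 1.5 h and 5396 to 8035 CPM in the dark in Col. Their part in the result was not tested.

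**Figure D1:**
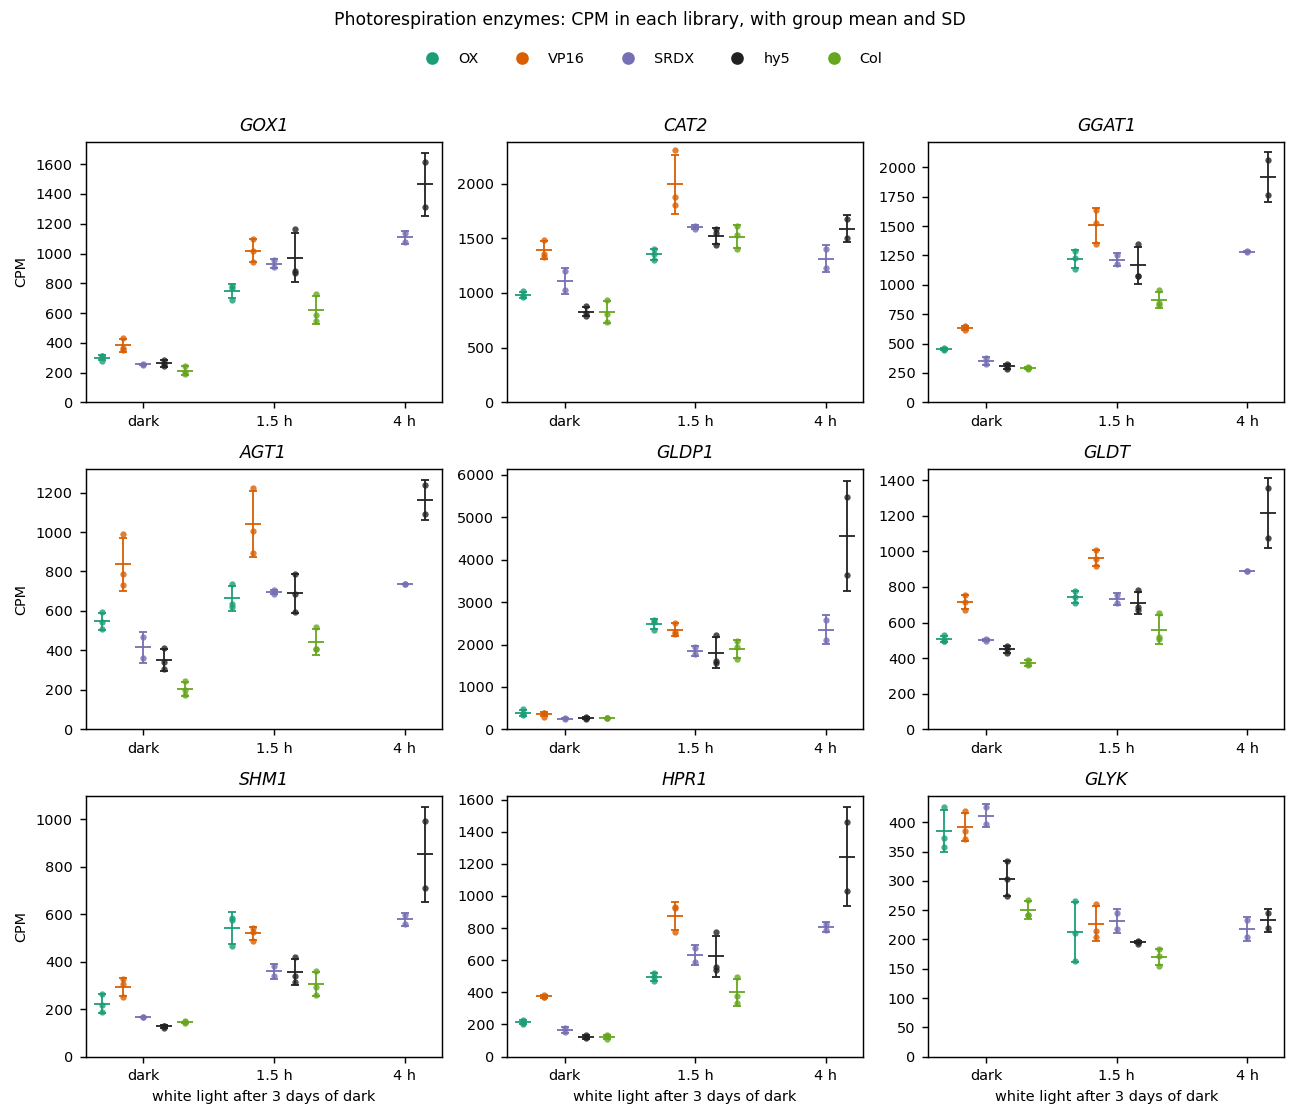
CPM of each of the 9 measured photorespiration genes in every library (points) with the group mean and SD (bars), by time in white light on the x axis and genotype by colour, from OX, VP16 and SRDX to hy5 and Col. Every gene but GLYK is higher at 1.5 h than in the dark in the group means, and hy5 lies above SRDX at 4 h in all 9 panels.

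Glycolate oxidase GOX1 turns glycolate into glyoxylate in peroxisomes. It had 691, 783 and 767 CPM at 1.5 h and 309, 281 and 312 CPM in the dark in OX, 1099.6, 1015 and 943 CPM at 1.5 h and 351, 364 and 433 CPM in the dark in VP16, and 726, 586 and 548 CPM at 1.5 h and 193, 202 and 247 CPM in the dark in Col. No light library overlapped a dark one, and the differences were 1.31 ± 0.12 in OX, 1.41 ± 0.12 in VP16, 1.87 ± 0.15 in SRDX, 1.88 ± 0.12 in hy5 and 1.53 ± 0.12 in Col. Catalase CAT2 removes the hydrogen peroxide that this step makes. It had 1584, 1544 and 1441 CPM at 1.5 h and 794, 817 and 877 CPM in the dark in hy5, and 1403, 1609 and 1532 CPM at 1.5 h and 738, 935 and 806 CPM in the dark in Col. Its rise was 0.88 ± 0.11 in hy5 and 0.88 ± 0.11 in Col, and 0.46, 0.52 and 0.53 in OX, VP16 and SRDX, in each case without overlap between dark and light.

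Glutamate:glyoxylate aminotransferase GGAT1 and serine:glyoxylate aminotransferase AGT1 both make glycine from glyoxylate, and AGT1 releases the hydroxypyruvate that HPR1 reduces. GGAT1 had 1346, 1074 and 1073 CPM at 1.5 h and 304, 285 and 328 CPM in the dark in hy5, and 952, 847 and 824 CPM at 1.5 h and 285, 288 and 299.6 CPM in the dark in Col. It rose by 1.42 ± 0.10 in OX, 1.24 ± 0.10 in VP16, 1.79 ± 0.13 in SRDX, 1.92 ± 0.10 in hy5 and 1.58 ± 0.10 in Col. AGT1 was the exception to the common rise in the 2 lines with the most HY5 RNA. It had 634, 736 and 621 CPM at 1.5 h and 594, 542 and 508 CPM in the dark in OX, and 1004, 1223 and 895 CPM at 1.5 h and 734, 990.3 and 785 CPM in the dark in VP16. The OX libraries did not overlap but the VP16 libraries did, and the differences were 0.27 ± 0.15 (adjusted p = 0.129) and 0.32 ± 0.15 (adjusted p = 0.0825). Without VP16 dark replicate 2 or VP16 1.5 h replicate 3 the adjusted p in VP16 was 0.0259 or 0.0412. In Col, AGT1 had 520.1, 409 and 406 CPM at 1.5 h and 174, 200 and 244 CPM in the dark, a rise of 1.11 ± 0.15, and in hy5 the rise was 0.96 ± 0.15. In SRDX, the calls on AGT1 (0.76 ± 0.18) and on CAT2 (0.53 ± 0.14) were lost without SRDX dark replicate 2, with adjusted p = 0.0668 and 0.081.

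In mitochondria, GLDP1 and GLDT are the P protein and T protein of glycine decarboxylase, which splits glycine, and SHM1 is the serine hydroxymethyltransferase that joins the remaining carbon unit to a further glycine. GLDP1 rose the most of the 9 in every genotype. It had 2346, 2522 and 2584 CPM at 1.5 h and 369, 346 and 473 CPM in the dark in OX, and 2289, 2517 and 2241 CPM at 1.5 h and 391, 299 and 378 CPM in the dark in VP16. In Col it had 2084, 1948 and 1663 CPM at 1.5 h and 263, 263 and 264 CPM in the dark. The rise was 2.66 ± 0.15 in OX, 2.73 ± 0.15 in VP16, 2.84 ± 0.18 in SRDX, 2.73 ± 0.15 in hy5 and 2.84 ± 0.15 in Col, a 6.32-fold to 7.17-fold increase. The 5 values differed by less than the sum of their standard errors. GLDT rose by less, between 0.43 in VP16 and 0.66 in hy5, where it had 783, 669 and 684 CPM at 1.5 h and 427, 449.6 and 471 CPM in the dark. SHM1 had 544, 526 and 487 CPM at 1.5 h and 326, 252 and 305 CPM in the dark in VP16, and 418, 338 and 313 CPM at 1.5 h and 130.2, 131 and 121 CPM in the dark in hy5. Its rise was 0.82 ± 0.13 in VP16 and 1.47 ± 0.13 in hy5, with OX, SRDX and Col at 1.28, 1.10 and 1.05.

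Hydroxypyruvate reductase HPR1 makes glycerate in peroxisomes, and glycerate kinase GLYK returns it to the Calvin cycle as 3-phosphoglycerate in chloroplasts. HPR1 had 471, 521 and 495 CPM at 1.5 h and 203, 229 and 211 CPM in the dark in OX, and 924, 929.5 and 774 CPM at 1.5 h and 385, 373 and 369 CPM in the dark in VP16. It had 773, 557 and 542 CPM at 1.5 h and 113, 121 and 136 CPM in the dark in hy5, and 494, 375 and 331 CPM at 1.5 h and 111, 129 and 133 CPM in the dark in Col. The rise was 1.20 ± 0.14 in OX, 1.22 ± 0.14 in VP16, 1.93 ± 0.17 in SRDX, 2.31 ± 0.14 in hy5 and 1.66 ± 0.14 in Col.

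GLYK went the other way in every genotype. It had 163, 265 and 211 CPM at 1.5 h and 357, 426 and 373 CPM in the dark in OX, and 204, 261 and 215 CPM at 1.5 h and 386, 419 and 371 CPM in the dark in VP16. In SRDX it had 426 and 397 CPM before light, 218 and 246 CPM at 1.5 h and 233 and 204 CPM at 4 h. Every light library of these 3 lines was below every dark library of the same line. In hy5 it had 274, 303 and 335 CPM before light, 195, 193 and 197 CPM at 1.5 h and 246 and 219 CPM at 4 h, and in Col 172, 155 and 184 CPM at 1.5 h and 242, 268 and 242 CPM in the dark. The 1.5 h change was -0.88 ± 0.12 in OX, -0.79 ± 0.12 in VP16, -0.83 ± 0.15 in SRDX, -0.63 ± 0.12 in hy5 and -0.56 ± 0.12 in Col. The change was not called different from that of hy5 in OX, VP16 or SRDX at 1.5 h, nor between hy5 and Col. GLYK is known to be transcribed from alternative starts in light and dark that give plastid and cytosolic proteins, and counts per gene do not separate them.

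**Figure D2:**
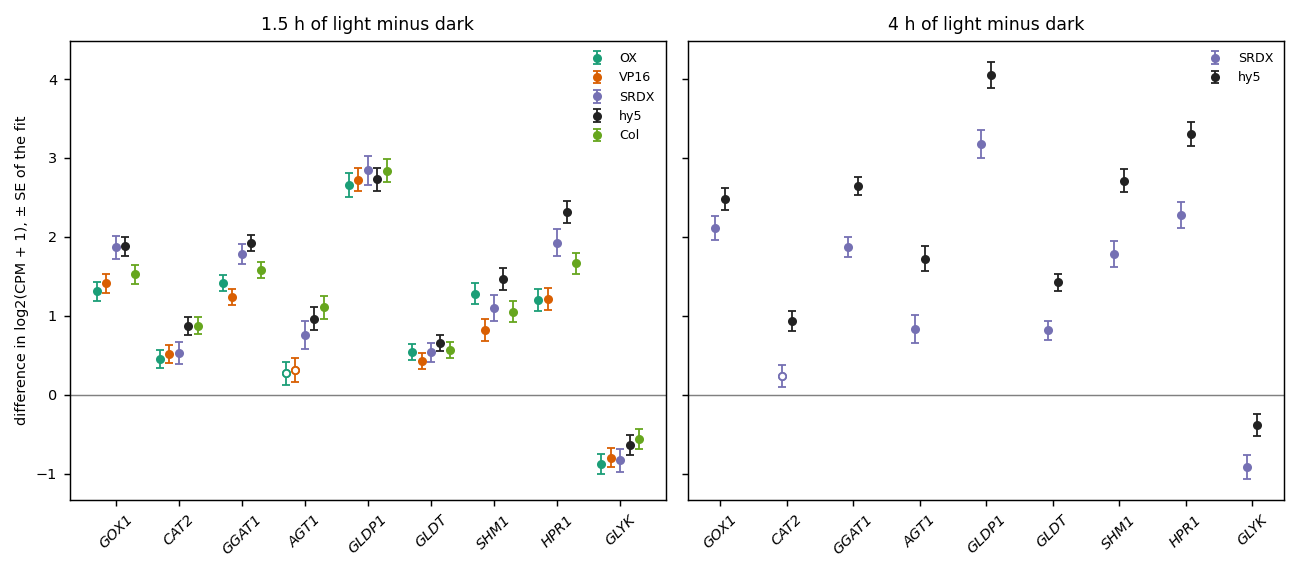
Difference in log2(CPM + 1), light minus dark, with the standard error of the fit, for the 9 genes at 1.5 h in OX, VP16, SRDX, hy5 and Col (left) and at 4 h in SRDX and hy5 (right). Open circles did not pass an adjusted p of 0.05. GLDP1 reaches 2.66 to 2.84 in all 5 genotypes at 1.5 h, HPR1 spreads from 1.20 in OX to 2.31 in hy5, and GLYK is below 0 throughout.

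The light response did differ between genotypes for part of the pathway. Relative to hy5, the 1.5 h change was smaller in OX for 4 of the 9 enzymes and larger for 0, against 4.73% and 5.98% of all genes, and smaller in VP16 for 4 and larger for 0, against 3.47% and 5%. Both comparisons use the same 6 hy5 libraries. The scale is log2, so a smaller change is a smaller ratio of light to dark. From dark to 1.5 h, mean HPR1 went from 375 to 876 CPM in VP16 and from 123 to 624 CPM in hy5. GGAT1 went from 636 to 1506 CPM and from 306 to 1164 CPM, and SHM1 from 294 to 519 CPM and from 127 to 356 CPM. AGT1 went from 836 to 1041 CPM in VP16 and from 353 to 689 CPM in hy5. In OX, HPR1 went from 215 to 496 CPM. In the limma fit, HPR1 differed by -1.11 ± 0.19 in OX (adjusted p = 0.000145) and -1.10 ± 0.19 in VP16 (adjusted p = 0.00021), and both calls were kept with each library left out in turn. GGAT1 differed by -0.50 ± 0.14 in OX and -0.68 ± 0.14 in VP16, and AGT1 by -0.69 ± 0.21 and -0.65 ± 0.21. GOX1 was called in OX (-0.57 ± 0.17) and SHM1 in VP16 (-0.64 ± 0.19). For GLDP1 the differences were -0.07 ± 0.21 in OX (adjusted p = 0.889) and within 0.01 of 0 in VP16 (adjusted p = 0.995), with a 95% interval of -0.43 to 0.42 in VP16.

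Most of these calls depended on single libraries. Without hy5 1.5 h replicate 1, 1 call was left in OX and 2 in VP16: adjusted p was 0.122 for GOX1, 0.0889 for GGAT1 and 0.0967 for AGT1 in OX, and 0.149 for AGT1 and 0.113 for SHM1 in VP16. In OX, GGAT1 was also lost without hy5 dark replicate 2 (0.0673) or OX 1.5 h replicate 1 (0.0563). GOX1 was lost without hy5 dark replicate 1 (0.0795) or 2 (0.0623), OX dark replicate 1 (0.0538) or 3 (0.0631), or OX 1.5 h replicate 1 (0.0728). AGT1 was lost in OX without hy5 dark replicate 1 (0.095) or 2 (0.061), OX dark replicate 1 (0.0648), hy5 1.5 h replicate 3 (0.0544), or OX 1.5 h replicate 1 (0.0583) or 3 (0.0696). In VP16, SHM1 was lost without hy5 dark replicate 3 (0.0702), VP16 dark replicate 1 (0.0917) or 3 (0.0637), or VP16 1.5 h replicate 3 (0.0779). AGT1 in VP16, with an adjusted p = 0.0485 in limma, was lost without hy5 dark replicate 1 (0.149) or 2 (0.0925), VP16 dark replicate 2 (0.153) or 3 (0.0558), hy5 1.5 h replicate 3 (0.0833), or VP16 1.5 h replicate 1 (0.0895) or 3 (0.149). With the replicate number as a block its adjusted p was 0.053.

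The response of SRDX at 1.5 h was not distinguished from that of hy5. By limma 0 of 9 differences passed, against 0.117% of all genes larger and 0.0102% smaller in SRDX, and edgeR called 0. At an unadjusted p below 0.05, 0 of the 9 passed, against 5.15% of all genes. The 95% intervals of the 9 differences ran between -0.83 and 0.59. Between hy5 and Col, limma called 0 of 9, against 1.11% of all genes larger and 2.9% smaller in hy5, and edgeR called 0. At an unadjusted p below 0.05, 3 of the 9 passed, against 13.5% of all genes. HPR1 came nearest, with a rise larger by 0.65 ± 0.19 in hy5 (adjusted p = 0.0547). It passed with the replicate block (adjusted p = 0.045) and without Col dark replicate 1 (0.0429), hy5 dark replicate 3 (0.0461), Col 1.5 h replicate 1 (0.00792), hy5 1.5 h replicate 2 (0.0461) or hy5 1.5 h replicate 3 (0.0343).

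In the dark, the line with the activator fusion had more RNA of every measured enzyme than hy5. VP16 was higher for 9 of 9 and lower for 0, against 11.1% of all genes higher and 11.1% lower, and every VP16 library was above every hy5 library for all 9, as it was for 19% of all genes. HPR1 had 385, 373 and 369 CPM in VP16 and 113, 121 and 136 CPM in hy5, a difference of 1.60 ± 0.14 (adjusted p = 6.8e-10). AGT1 had 734, 990.3 and 785 CPM in VP16 and 304, 342 and 413 CPM in hy5, a difference of 1.24 ± 0.15. SHM1, with 326, 252 and 305 CPM in VP16 and 130.2, 131 and 121 CPM in hy5, differed by 1.19 ± 0.13. These were the 3 largest of the 9. GGAT1 differed by 1.06 ± 0.10, CAT2 by 0.74 ± 0.11, GLDT by 0.67 ± 0.10 and GOX1 by 0.55 ± 0.12.

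The smallest differences between VP16 and hy5 in the dark were those of GLDP1 (0.40 ± 0.15, adjusted p = 0.0496) and GLYK (0.37 ± 0.12, adjusted p = 0.0282). GLDP1 had 391, 299 and 378 CPM in VP16 and 279.5, 283 and 242 CPM in hy5, and GLYK had 386, 419 and 371 CPM in VP16 and 274, 303 and 335 CPM in hy5. GLDP1 did not pass without hy5 replicate 1, 2 or 3 (0.0779, 0.0689 and 0.178) or VP16 replicate 1 or 3 (0.19 and 0.15). GLYK did not pass without hy5 replicate 1 or 2 (0.139 and 0.0653) or VP16 replicate 1 or 2 (0.0589 and 0.103). The green cotyledon markers summed to 11499 to 18735 CPM in dark VP16 and 7569.9 to 9039.9 CPM in dark hy5, without overlap, and the root markers to 124 to 161 CPM in VP16 and 191 to 207 CPM in hy5. That root sum was mostly CASP1, which was lower in VP16 (-0.60). EXPA7 (1.36) and COBL9 (1.57) were higher, at means of 3.05 and 4.13 CPM in VP16, and RHD2 was not called. The seed storage markers summed to 3.7 to 4.4 CPM in VP16 and 1.08 to 1.64 CPM in hy5. Their part in the result was not tested.

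In dark OX 5 of the 9 were higher than in hy5 and 0 lower, against 6.72% and 6.76% of all genes. HPR1 had 203, 229 and 211 CPM in OX and 113, 121 and 136 CPM in hy5, a difference of 0.80 ± 0.14, and SHM1 had 187, 219 and 264 CPM in OX and 130.2, 131 and 121 CPM in hy5, a difference of 0.79 ± 0.13. AGT1 differed by 0.64 ± 0.15, GGAT1 by 0.57 ± 0.10 and GLDP1 by 0.55 ± 0.15. GLDP1 had 369, 346 and 473 CPM in OX, with replicate 3 the highest, and did not pass without OX replicate 3 (0.0935) or hy5 replicate 3 (0.0628). GLYK, with 357, 426 and 373 CPM in OX and 274, 303 and 335 CPM in hy5, differed by 0.34 ± 0.12 (adjusted p = 0.0591) and passed without OX replicate 1 (0.0476) or hy5 replicate 3 (0.0477). GOX1, CAT2 and GLDT did not pass, at 0.20 ± 0.12, 0.25 ± 0.11 and 0.18 ± 0.10. Green cotyledon markers summed to 7065 to 11547 CPM in OX, which overlaps the 7569.9 to 9039.9 CPM of hy5. RBCS1A, the largest part of that sum, and RBCS1B overlapped. LHCB1.3 (2357 to 5073 CPM in OX, 1506 to 2123 CPM in hy5) and RCA (846 to 1077 and 552 to 630 CPM) were higher in OX without overlap. The root markers summed to 129 to 187 CPM in OX and 191 to 207 CPM in hy5, and the seed storage markers to 3.2 to 6.58 CPM in OX and 1.08 to 1.64 CPM in hy5, both without overlap, and the part of these markers in the result was not tested.

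In dark SRDX 2 of the 9 were higher than in hy5 and 0 lower, against 5.19% and 4.52% of all genes. CAT2 had 1197 and 1028 CPM in SRDX and 794, 817 and 877 CPM in hy5, a difference of 0.42 ± 0.13 (adjusted p = 0.0304). GLYK had 426 and 397 CPM in SRDX and 274, 303 and 335 CPM in hy5, a difference of 0.44 ± 0.14 (adjusted p = 0.0377). The groups did not overlap for either gene, but both calls were lost without any one of hy5 replicate 1 (CAT2 0.0923, GLYK 0.138), hy5 replicate 2 (0.0729 and 0.0749), SRDX replicate 1 (0.223 and 0.163) or SRDX replicate 2 (0.0556 and 0.13). HPR1 and SHM1 stood at 0.42 ± 0.15 (adjusted p = 0.078) and 0.39 ± 0.15 (adjusted p = 0.0984). The root markers summed to 92.3 to 119 CPM in SRDX and 191 to 207 CPM in hy5, and the seed storage markers to 10.2 to 12.2 CPM in SRDX and 1.08 to 1.64 CPM in hy5, both without overlap, while the green cotyledon markers overlapped, with 6371 to 8272 CPM in SRDX and 7569.9 to 9039.9 CPM in hy5. By single green marker, LHCB1.3 (847 and 1311 CPM in SRDX, 1506 to 2123 CPM in hy5) and RBCS1B were lower in SRDX without overlap. RCA (634 and 671 CPM in SRDX, 552 to 630 CPM in hy5) was higher without overlap, and RBCS1A overlapped. Of the seed storage markers, CRC (means of 8.71 CPM in SRDX and 0.30 CPM in hy5) was called higher. CRA1 and OLEO1 were not called. The part of the markers in the result was not tested. OX, VP16 and SRDX were each set against the same 3 dark hy5 libraries.

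The 2 fusions were also compared with each other. In the dark VP16 was higher than SRDX for 7 of 9 enzymes and lower for 0, against 9.73% and 10.3% of all genes. HPR1 had 385, 373 and 369 CPM in VP16 and 177 and 154 CPM in SRDX, a difference of 1.18 ± 0.15, and AGT1 had 734, 990.3 and 785 CPM in VP16 and 469.9 and 360.3 CPM in SRDX, a difference of 1.01 ± 0.16. GGAT1 (0.86 ± 0.11), SHM1 (0.80 ± 0.15), GOX1 (0.58 ± 0.14) and GLDT (0.51 ± 0.11) passed as well. GLDP1 (0.46 ± 0.16, adjusted p = 0.048) did not pass without VP16 replicate 1 (0.146) or 3 (0.141) or SRDX replicate 1 (0.165) or 2 (0.16). CAT2 stood at 0.32 ± 0.13 (adjusted p = 0.0692) and GLYK at -0.07 ± 0.14 (adjusted p = 0.777). Between these groups the green cotyledon markers summed to 11499 to 18735 CPM in VP16 and 6371 to 8272 CPM in SRDX, the root markers to 124 to 161 CPM in VP16 and 92.3 to 119 CPM in SRDX, and the seed storage markers to 3.7 to 4.4 CPM in VP16 and 10.2 to 12.2 CPM in SRDX, all without overlap; their part was not tested. HY5 RNA was itself higher in VP16 than in SRDX, so the domain and the transgene level cannot be told apart.

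Between hy5 and Col, 1 of the 9 was called in the dark. AGT1 had 304, 342 and 413 CPM in hy5 and 174, 200 and 244 CPM in Col, with every hy5 library above every Col library, and was higher by 0.78 ± 0.15 (adjusted p = 0.00299). It was the single enzyme called, against 1.16% of all genes higher and 0.859% lower in hy5, and the call was kept with each library left out. The other 8 lay between -0.19 for SHM1 and 0.29 for GOX1. The seed storage markers summed to 1.08 to 1.64 CPM in hy5 and 2.73 to 5.91 CPM in Col, without overlap, and the green cotyledon and root markers overlapped; their part was not tested.

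At 1.5 h of light VP16 was higher than hy5 for 7 of 9 enzymes and lower for 0, against 13.1% and 11.8% of all genes. The differences were smaller than in the dark for HPR1, which had 924, 929.5 and 774 CPM in VP16 and 773, 557 and 542 CPM in hy5 and differed by 0.50 ± 0.14. Those of AGT1 (0.59 ± 0.15), SHM1 (0.55 ± 0.13), GLDT (0.44 ± 0.10) and GGAT1 (0.37 ± 0.10) passed in the same direction. CAT2 had 1878, 2305 and 1805 CPM in VP16 and 1584, 1544 and 1441 CPM in hy5, a difference of 0.38 ± 0.11, with VP16 replicate 2 the highest. CAT2 did not pass without VP16 replicate 2 (0.0974) or hy5 replicate 3 (0.0563), and HPR1 did not pass without hy5 replicate 3 (0.0551). GLDP1 stood at 0.40 ± 0.15 (adjusted p = 0.0479, edgeR 0.0513) and did not pass without hy5 replicate 2 (0.18) or 3 (0.215) or VP16 replicate 1, 2 or 3 (0.0814, 0.144 and 0.0701). Without hy5 replicate 3 the number called was 4. The green cotyledon markers summed to 18886 to 22993 CPM in VP16 and 13911 to 16655 CPM in hy5 at 1.5 h, the root markers to 135 to 155 CPM in VP16 and 159.7 to 168 CPM in hy5, and the seed storage markers to 3.15 to 4.29 CPM in VP16 and 2.03 to 2.67 CPM in hy5, all without overlap. That root sum was mostly CASP1, called lower in VP16 (-0.48), while EXPA7 (1.74), COBL9 (1.08) and RHD2 (1.34) were called higher. The part of all these markers in the result was not tested.

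In OX at 1.5 h 2 of the 9 were higher than in hy5 and 1 lower, against 12.6% and 12.6% of all genes. The 1 lower is 11.1% of the enzymes, near the share of all genes, and the 2 higher are 22.2%. SHM1 had 464, 586 and 574 CPM in OX and 418, 338 and 313 CPM in hy5, a difference of 0.60 ± 0.13. GLDP1 had 2346, 2522 and 2584 CPM in OX and 2221, 1623 and 1573 CPM in hy5, a difference of 0.48 ± 0.15. GOX1 had 691, 783 and 767 CPM in OX and 1165, 883 and 871 CPM in hy5 and was lower by -0.37 ± 0.12. The SHM1 call held with each library left out. GLDP1 did not pass without hy5 replicate 2 (0.0811) or 3 (0.103) or OX replicate 3 (0.0585), and GOX1 did not without hy5 replicate 1 (0.208) or OX replicate 1 (0.0909). SRDX at 1.5 h was not distinguished from hy5: limma called 0 of 9, against 4.26% of all genes higher and 2.24% lower, and edgeR called 0. At an unadjusted p below 0.05, 0 of the 9 passed, against 17.1% of all genes. The 95% intervals of these 9 differences ran between -0.33 and 0.52. The green cotyledon markers summed to 12263 to 12425 CPM in SRDX and 13911 to 16655 CPM in hy5, though limma called 0 of the 4. The root markers summed to 102 to 118 CPM in SRDX and 159.7 to 168 CPM in hy5. The seed storage markers summed to 12.01 to 15.14 CPM in SRDX and 2.03 to 2.67 CPM in hy5. None of these sums overlapped, and their part was not tested.

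Compared with SRDX at 1.5 h, VP16 was higher for 5 of 9 and lower for 0, against 15.4% and 14.5% of all genes. The called enzymes were AGT1 (0.57 ± 0.16), SHM1 (0.53 ± 0.15), HPR1 (0.46 ± 0.15), GLDT (0.40 ± 0.11) and GGAT1 (0.31 ± 0.11). AGT1 had 1004, 1223 and 895 CPM in VP16 and 687 and 704 CPM in SRDX. Without SRDX replicate 2 only AGT1 was left: adjusted p was 0.111 for SHM1, 0.209 for HPR1, 0.0852 for GLDT and 0.232 for GGAT1. Without SRDX replicate 1, AGT1 (0.0663) and GGAT1 (0.091) did not pass. Without VP16 replicate 1, HPR1 (0.0692) and GGAT1 (0.0922) did not pass, and without VP16 replicate 2, AGT1 (0.0525), HPR1 (0.0624) and GGAT1 (0.14) did not. CAT2 (0.31 ± 0.13, adjusted p = 0.0623) passed without VP16 replicate 3 (0.0413) and with edgeR (0.0381). Here the green cotyledon markers summed to 18886 to 22993 CPM in VP16 and 12263 to 12425 CPM in SRDX, the root markers to 135 to 155 CPM in VP16 and 102 to 118 CPM in SRDX, and the seed storage markers to 3.15 to 4.29 CPM in VP16 and 12.01 to 15.14 CPM in SRDX, all without overlap; their part was not tested.

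At 1.5 h, hy5 was higher than Col for 5 of 9 and lower for 0, against 4.05% and 5.11% of all genes. GOX1 had 1165, 883 and 871 CPM in hy5 and 726, 586 and 548 CPM in Col, a difference of 0.65 ± 0.12. HPR1, with 773, 557 and 542 CPM in hy5 and 494, 375 and 331 CPM in Col, differed by 0.64 ± 0.14, and AGT1 by 0.63 ± 0.15. For all 3 the lowest hy5 library was above the highest Col library. GGAT1 (0.41 ± 0.10) and GLDT (0.35 ± 0.10) did not pass without hy5 replicate 1 (0.109 and 0.152), nor GLDT without Col replicate 2 (0.116) or 3 (0.129). CAT2, GLDP1, SHM1 and GLYK did not pass, at 0.01, -0.08, 0.23 and 0.20. The green cotyledon markers summed to 13911 to 16655 CPM in hy5 and 9704 to 14119.7 CPM in Col, with overlap. Among them RCA, with 2918 to 4014 CPM in hy5 and 1636 to 2685 CPM in Col, did not overlap, and RBCS1A, RBCS1B and LHCB1.3 did. The seed storage markers summed to 2.03 to 2.67 CPM in hy5 and 2.98 to 5.48 CPM in Col, without overlap. Their part in the result was not tested.

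**Figure D3:**
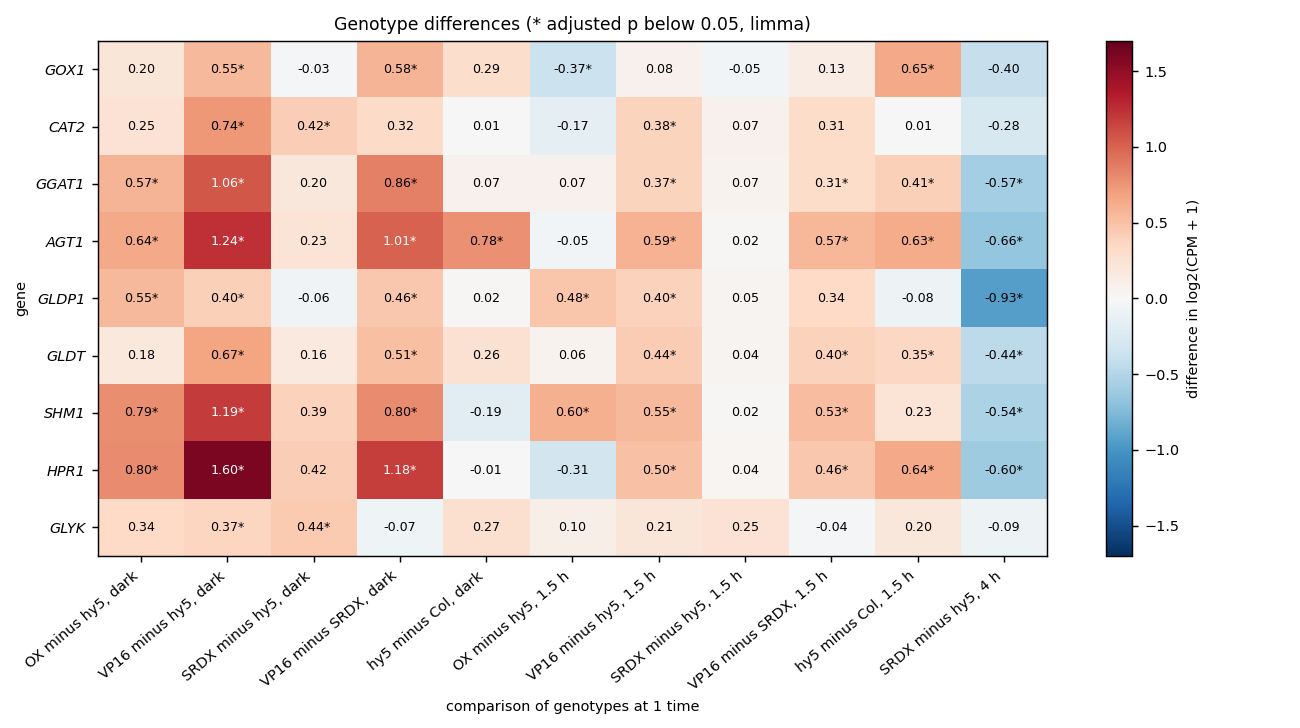
Difference in log2(CPM + 1) between genotypes at the same time (columns) for the 9 genes (rows), with the value printed and an asterisk where the adjusted p was below 0.05. Dark VP16 minus hy5 is marked in all 9 rows, SRDX minus hy5 at 1.5 h in none, and SRDX minus hy5 at 4 h in 6, all below 0.

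Light for 4 h was given to hy5 and SRDX. In hy5 most of the 9 enzymes went on rising after 1.5 h. Relative to the dark 8 rose and 1 fell, against 24.5% and 26.3% of all genes, and relative to 1.5 h 7 rose and 0 fell, against 13% and 12.7%. GLDP1 had 279.5, 283 and 242 CPM before light, 2221, 1623 and 1573 CPM at 1.5 h and 5481 and 3642 CPM at 4 h, a rise of 4.06 ± 0.16 over the dark. The 2 libraries at 4 h were far apart, with replicate 1 the higher. HPR1 had 113, 121 and 136 CPM before light, 773, 557 and 542 CPM at 1.5 h and 1462 and 1028 CPM at 4 h, a rise of 3.31 ± 0.15 over the dark. SHM1 rose by 2.71 ± 0.15, GGAT1 by 2.64 ± 0.11, GOX1 by 2.48 ± 0.14, AGT1 by 1.73 ± 0.16, GLDT by 1.42 ± 0.11 and CAT2 by 0.94 ± 0.13. Between 1.5 h and 4 h, GLDP1 rose by 1.32 ± 0.16 and SHM1 by 1.25 ± 0.15, while CAT2 (0.06 ± 0.13) and GLYK (0.25 ± 0.14) did not pass. GOX1 (0.60 ± 0.14) did not pass without hy5 4 h replicate 1 (0.0789). GLYK was still below its dark level in hy5 at 4 h (-0.38 ± 0.14, adjusted p = 0.0195), but not without hy5 dark replicate 3 (0.0859) or hy5 4 h replicate 2 (0.158).

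In SRDX, relative to the dark 7 rose and 1 fell at 4 h, against 23.1% and 23.6% of all genes, and relative to 1.5 h 1 rose and 0 fell, against 10.8% and 12.2%. GLDP1 had 255 and 259.9 CPM before light, 1932 and 1771 CPM at 1.5 h and 2588 and 2115 CPM at 4 h, a rise of 3.18 ± 0.18 over the dark. HPR1 had 177 and 154 CPM before light, 678 and 589.7 CPM at 1.5 h and 785 and 828 CPM at 4 h, a rise of 2.28 ± 0.17. For both genes the 4 h libraries were above all 1.5 h libraries, but neither difference passed between these times (0.34 ± 0.18, adjusted p = 0.184, and 0.35 ± 0.17, adjusted p = 0.137). The enzyme that rose between 1.5 h and 4 h was SHM1, with 382 and 338 CPM at 1.5 h and 559 and 598 CPM at 4 h (0.69 ± 0.16), and it did not pass without SRDX 1.5 h replicate 2 (0.0596). CAT2 did not pass over 4 h in SRDX, at 0.24 ± 0.14 (adjusted p = 0.158).

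At 4 h, SRDX was lower than hy5 for 6 of 9 enzymes and higher for 0, against 9.65% of all genes lower and 8.24% higher. GLDP1 had 2588 and 2115 CPM in SRDX and 5481 and 3642 CPM in hy5, a difference of -0.93 ± 0.18 (adjusted p = 0.000336). GGAT1 had 1285 and 1282 CPM in SRDX and 2064 and 1765 CPM in hy5, a difference of -0.57 ± 0.13 (adjusted p = 0.0013). The groups did not overlap for these genes, and these calls held with each library left out. AGT1 had 735 and 737 CPM in SRDX and 1091 and 1236 CPM in hy5, a difference of -0.66 ± 0.18, and HPR1 differed by -0.60 ± 0.17, SHM1 by -0.54 ± 0.16 and GLDT by -0.44 ± 0.12.

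Those 4 calls did depend on single libraries. Without hy5 replicate 1, adjusted p was 0.27 for HPR1, 0.35 for SHM1 and 0.221 for GLDT, and 3 calls were left. Without SRDX replicate 1 it was 0.0565 for AGT1, 0.0799 for HPR1, 0.127 for SHM1 and 0.0552 for GLDT, and 2 were left. Without SRDX replicate 2 it was 0.0596 for AGT1, 0.0664 for SHM1 and 0.0602 for GLDT. Without hy5 replicate 2, AGT1 did not pass (0.0835) and GOX1 (-0.40 ± 0.15, adjusted p = 0.0664) did (0.0366). A fit on these 4 libraries alone called 1 of 9, AGT1. The green cotyledon markers summed to 17180.5 to 17278 CPM in SRDX and 18718 to 21434 CPM in hy5 at 4 h, and the seed storage markers to 10.6 to 16.0 CPM in SRDX and 2.93 to 6.18 CPM in hy5. Of the green markers, RCA had 5160 to 5226 CPM in SRDX and 6270 to 8317 CPM in hy5. LHCB1.3 had 3607 to 3836 CPM in SRDX and 4683 to 4712 CPM in hy5. Both were lower in SRDX without overlap, RBCS1A and RBCS1B overlapped, and limma called 0 of these 4. The root markers summed to 127 to 138 CPM in SRDX and 149 to 154 CPM in hy5. Their part in the result was not tested.

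The change over 4 h was smaller in SRDX than in hy5 for 7 of 9 and larger for 0, against 5.74% and 4.34% of all genes. It differed by -1.03 ± 0.23 for HPR1, -0.93 ± 0.22 for SHM1, -0.89 ± 0.24 for AGT1, -0.88 ± 0.24 for GLDP1, -0.77 ± 0.17 for GGAT1, -0.70 ± 0.19 for CAT2 and -0.60 ± 0.16 for GLDT. HPR1 and GGAT1 passed with each library left out. Without hy5 4 h replicate 1, 3 were left, and adjusted p was 0.0692 for SHM1, 0.159 for GLDP1, 0.0644 for CAT2 and 0.123 for GLDT. Without SRDX 4 h replicate 1, AGT1 (0.0558), CAT2 (0.0862) and GLDT (0.0528) did not pass, and without replicate 2 AGT1 (0.0563), GLDP1 (0.119) and GLDT (0.0548) did not. Of the dark libraries, SRDX replicate 1 carried CAT2 (0.0773 without it) and AGT1 (0.104), SRDX replicate 2 GLDP1 (0.0579) and GLDT (0.0519), and hy5 replicate 3 GLDP1 (0.0515). Without hy5 4 h replicate 2, AGT1 did not pass (0.064).

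Across the 12 group means the enzymes other than GLYK followed a common pattern. The Pearson correlation of each with the mean of the other measured members was 0.982 for HPR1, 0.973 for GLDT, 0.963 for GGAT1, 0.949 for SHM1, 0.928 for GOX1, 0.921 for AGT1, 0.861 for CAT2 and 0.853 for GLDP1, and -0.548 for GLYK. These values describe 12 groups that share libraries of the same times and genotypes. The 10 other genes of the table whose group means were most like the mean member pattern included ATPC1 (0.991), PSAN (0.979), LHCA3 (0.974), GAPA-2 (0.973), PSAF (0.972), CYP38 (0.97) and CHLI1 (0.969). They encode an ATP synthase subunit, 2 photosystem I subunits, a photosystem I antenna protein, a Calvin cycle dehydrogenase subunit, a thylakoid cyclophilin and a magnesium chelatase subunit of the chloroplast. The other 3 were AT2G21530, AT1G76450 and AT4G18740.

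Paralogs of the enzymes moved in both directions in light. Of 10 measured paralogs, 4 rose and 2 fell at 1.5 h in OX, 3 and 3 in VP16, 3 and 3 in SRDX, 4 and 2 in hy5 and 3 and 2 in Col, and 5 rose and 3 fell by 4 h in SRDX, and 4 and 3 in hy5. Of all genes, 23.6% rose and 22.6% fell in OX, 22.4% and 22.1% in VP16, 13.9% and 12.7% in SRDX, 16.4% and 15.7% in hy5 and 18% and 17.9% in Col. By 4 h these shares were 23.1% and 23.6% in SRDX and 24.5% and 26.3% in hy5. The paralogs that fell made up 20% or 30%, near the shares of all genes except in SRDX at 1.5 h. In VP16 the 30% that rose was near that share too. Those that rose at 1.5 h were GGAT2, GLDP2 and GOX2 in all 5 genotypes and SHM2 in OX and hy5. GGAT2, the second peroxisomal glutamate:glyoxylate aminotransferase, was low in the dark and rose in every genotype. It had 6.11 and 5.61 CPM before light, 46.5 and 34.9 CPM at 1.5 h and 78.0 and 88.2 CPM at 4 h in SRDX, and 5.76, 5.73 and 5.55 CPM before light, 46.3, 39.9 and 33.8 CPM at 1.5 h and 139 and 134 CPM at 4 h in hy5. At 4 h it had risen by 3.61 ± 0.14 in SRDX and 4.36 ± 0.13 in hy5, beside 1.87 and 2.64 for GGAT1. At 1.5 h it rose by 1.94 in OX, 2.48 in VP16, 2.59 in SRDX, 2.61 in hy5 and 1.94 in Col. GLDP2, the second P protein, rose by 1.27 ± 0.11 in OX, 1.55 ± 0.11 in VP16, 1.44 ± 0.13 in SRDX, 1.41 ± 0.11 in hy5 and 1.12 ± 0.11 in Col at 1.5 h, in each case by less than GLDP1 in value, though the difference between the genes was not tested. It had 474, 435 and 419.6 CPM at 1.5 h and 199.7, 209 and 201 CPM in the dark in Col. GOX2 rose by 0.70 in OX, 1.07 in VP16, 1.14 in SRDX, 1.22 in hy5 and 0.87 in Col. SHM2, the second mitochondrial serine hydroxymethyltransferase, had 25.7, 20.7 and 24.2 CPM before light, 28.3, 33.8 and 30.8 CPM at 1.5 h and 45.2 and 40.4 CPM at 4 h in hy5, a rise of 0.84 ± 0.15 by 4 h. At 1.5 h SHM2 stood at 0.52 ± 0.13 in OX and 0.38 ± 0.13 in hy5, which passed, and at 0.30 in VP16, 0.24 in SRDX and 0.27 in Col, which did not. Catalase CAT3, unlike CAT2, fell in all 5 genotypes, with differences of -0.85 in OX, -0.92 in VP16, -0.47 in SRDX, -0.49 in hy5 and -0.48 in Col. It had 2086, 2404 and 1945 CPM at 1.5 h and 3938, 4486 and 3748 CPM in the dark in VP16. The other paralogs that fell at 1.5 h, named after their values were seen, were catalase CAT1 in all 5 genotypes (-0.33 in Col to -0.80 in OX) and the phosphoglycolate phosphatase homolog PGLP2 in VP16 (-0.36) and SRDX (-0.38).

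**Figure D4:**
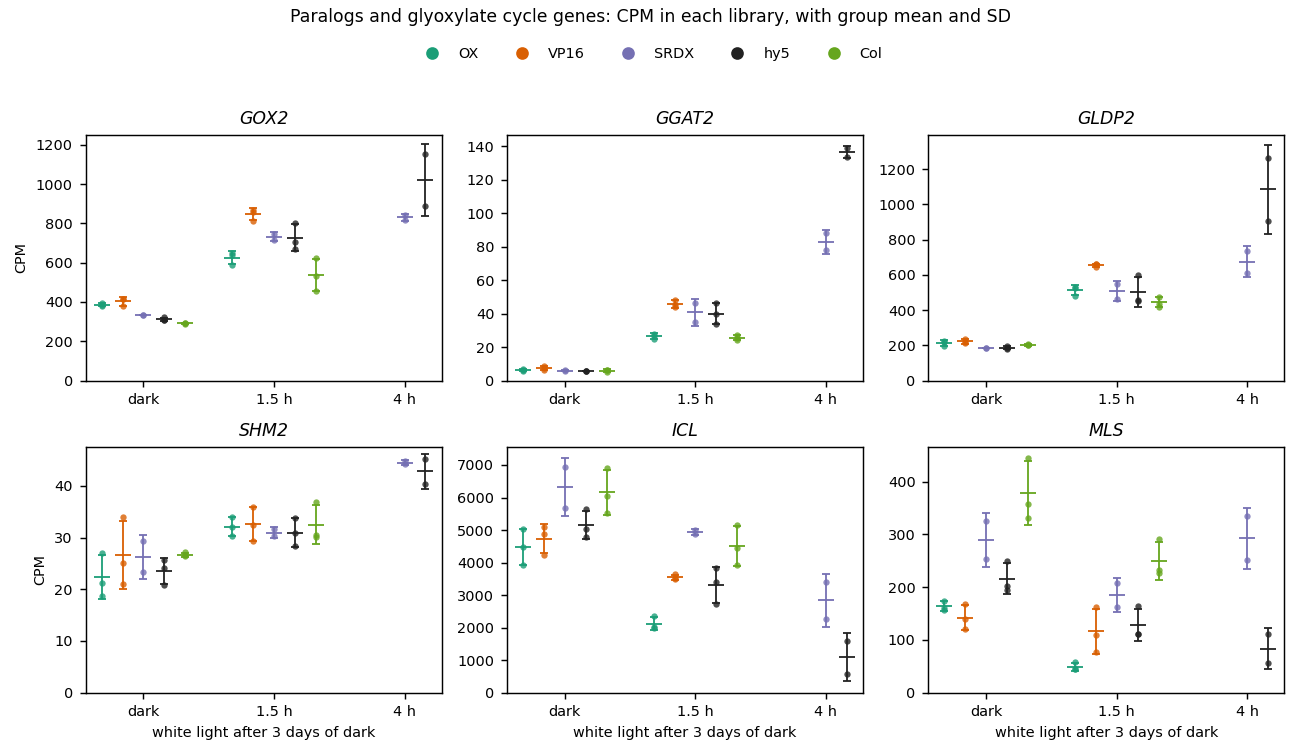
CPM in every library (points) with group mean and SD (bars) of 4 paralogs of the enzymes and of ICL and MLS, by time in white light and genotype, from OX, VP16 and SRDX to hy5 and Col. GGAT2 climbs from about 5.55 to 5.76 CPM in dark hy5 to 134 to 139 CPM at 4 h, and MLS at 4 h is 252 to 334 CPM in SRDX and 55.5 to 110.4 CPM in hy5.

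Among 29 measured paralogs and other photorespiratory genes (further glycine decarboxylase subunits, ammonia refixation, transporters, malate dehydrogenases and glyoxylate reductases), 18 rose and 3 fell in OX at 1.5 h, 17 and 3 in VP16, 14 and 3 in SRDX, 14 and 2 in hy5 and 13 and 3 in Col. By 4 h, 18 had risen and 4 fallen in SRDX, and 16 and 5 in hy5. The shares of all genes that rose and fell were 23.6% and 22.6% in OX, 22.4% and 22.1% in VP16, 13.9% and 12.7% in SRDX, 16.4% and 15.7% in hy5 and 18% and 17.9% in Col at 1.5 h, and 23.1% and 23.6% in SRDX and 24.5% and 26.3% in hy5 by 4 h. BOU, a mitochondrial carrier needed for photorespiration, rose by 1.54 ± 0.14 in VP16, 1.60 ± 0.17 in SRDX and 1.79 ± 0.14 in hy5 at 1.5 h, and the plastid dicarboxylate transporter DiT1 rose by 1.28 ± 0.10 in OX and 1.35 ± 0.10 in Col. The formyltetrahydrofolate deformylase 10-FDF2, which keeps folate available in mitochondria, fell by 4 h in SRDX (-0.58 ± 0.11) and hy5 (-0.64 ± 0.10).

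Between genotypes, 4 of the 29 were higher and 0 lower in OX than in hy5 in the dark, against 6.72% and 6.76% of all genes, 9 and 1 in VP16, against 11.1% and 11.1%, and 0 and 2 in SRDX, against 5.19% and 4.52%. At 1.5 h, 4 were higher and 4 lower in OX, 13.8% in each direction and near the 12.6% and 12.6% of all genes. In VP16 9 were higher and 1 lower at that time, against 13.1% and 11.8%, and in SRDX 0 and 1, against 4.26% and 2.24%. GS2, the plastid glutamine synthetase that refixes photorespiratory ammonia, had 830.5, 670.4 and 831 CPM in VP16 and 445, 433 and 483 CPM in hy5 in the dark (0.77 ± 0.11). At 4 h, 3 of 29 were higher and 11 lower in SRDX than in hy5, against 8.24% and 9.65% of all genes. Ferredoxin-dependent glutamate synthase GLU1, the partner of GS2, had 994 and 951 CPM in SRDX and 1951 and 1681 CPM in hy5 at 4 h, the largest called difference of the list in either direction (-0.90 ± 0.15). Relative to Col, 4 were higher and 0 lower in hy5 at 1.5 h, against 4.05% and 5.11% of all genes, and among the 4 were BOU (0.60 ± 0.14) and GGAT2 (0.61 ± 0.12).

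The glyoxylate cycle, which turns seed oil into sugar, shares peroxisomes with these enzymes. Its isocitrate lyase ICL had 2265 and 3415 CPM in SRDX and 560.1 and 1601 CPM in hy5 at 4 h, a difference of 1.55 ± 0.29, and its malate synthase MLS 252 and 334 CPM in SRDX and 55.5 and 110.4 CPM in hy5, a difference of 1.87 ± 0.27. Over 4 h ICL fell in SRDX (-1.18 ± 0.29) and in hy5 (-2.44 ± 0.26), and MLS fell in hy5 (-1.44 ± 0.24) but was called in neither direction in SRDX (0.01 ± 0.27). At 4 h, ICL and MLS and 6 of the 9 photorespiration enzymes thus lay on opposite sides of hy5 in SRDX. Of 5 genes listed for the glyoxylate cycle, 3 were higher and 0 lower, against 8.24% and 9.65% of all genes. Replicate 1 of hy5 at 4 h was the lower library for ICL and MLS and the higher for 8 of the 9 enzymes. Fits with a library left out were not examined for ICL or MLS.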

How the data were processed

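Stranded mRNA libraries of 12 groups were analysed. Per the submitters' processing notes, the build was TAIR10 and the tools named are HTSeq 0.6.0, edgeR 3.16.5, CASAVA 1.8.2, Bowtie2 2.2.2.0, TopHat2 2.0.11 and SAMtools 0.1.19.0. The authors deposited CPM for 19685 genes, treated here as a normalized signal because the columns sum to 925942 to 1066829 rather than to 1 fixed total; the planned test for CPM was kept. The authors also deposited log2 fold changes against hy5, whose 9 comparisons differed from the values here by at most 0.0279 for these enzymes; the one on the wild type is Col over hy5, the opposite direction.

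Reads per gene were recovered from the step of each CPM column (whole within 0.01 reads for 100% of values), for depth and for edgeR 4.0.16. The floor of 3 reads is 0.137 to 0.394 CPM and covers counting error only. Within groups, 28 replicate pairs differed by 3.18 to 20.3 times the counting variance, so none was merged.

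R 4.3.3 with limma 3.58.1 (lmFit and contrasts.fit, then eBayes with a mean-variance trend) was fitted to log2(CPM + 1), with 1 mean per group over 32 libraries. A filter of CPM at least 1 in at least 2 libraries removed 0 genes. Each of 25 comparisons was adjusted by Benjamini-Hochberg. On simulated data, the fit recovered 74.6% of 1.5-fold and 95.5% of 2-fold changes for 1.5 h against dark in Col. It recovered 50.7% and 91% for SRDX against hy5 at 4 h. For the 1.5 h response of OX against hy5 it recovered 34.3% and 77.6%, so changes of this size can go uncalled. False calls were 8, 8 and 6 among 19485 unchanged genes. Fits were repeated with edgeR's quasi-likelihood test (TMM), median-of-ratios scaling, a pseudocount of 0.25, a minimum mean of 5 CPM, no filter, a block for the replicate number, only the groups compared, and every library omitted in turn.

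Same-numbered libraries deviated together (all 3 correlations over 0.1) in hy5 against Col in the dark (0.243 to 0.393) and in OX light against dark (0.135 to 0.453). With 2 pairs, correlations were also over 0.1 in SRDX against hy5 at 4 h (0.153) and in SRDX at 1.5 h against dark (0.14). The same held in hy5 at 4 h against 1.5 h (0.127 to 0.19). This comes from the data, since no label states a common batch or day. The block changed no call on the enzymes in any of these comparisons.

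Enzymes, gene lists and tests were chosen with earlier results of these data known. Named genes are the listed enzymes, HY5, the paralogs GOX2, PGLP1B, GGAT2, GLDP2 and SHM2, the highest and the lowest called genes of the paralog and other pathway lists in a comparison, ICL and MLS, and the 10 genes of most similar pattern with a mean of at least 5 CPM. GS2, PMDH2 and genes with a different light response are also named where their values are given. Single tissue markers that differ from the sum of their list are named for some comparisons only. Coordinates and promoters were read from the TAIR10.1 genome with Biopython 1.88, matched by locus tag. Protein sequences were not used here. Tables and figures were made with Python 3.11.15, numpy 2.4.6, pandas 2.3.3 and matplotlib 3.10.9.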

Additional observations from a re-analysis of the deposited data

Results flagged for a closer look

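Changes in light that differed between genotypes, by the test of the difference itself, are gathered here. No explanation was tested. All compare a light response in one genotype with that in another, on the log2 scale, and those against hy5 share its libraries.

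Among the photorespiration enzymes, the 1.5 h response in OX minus that in hy5 was -0.57 for GOX1, -0.50 for GGAT1, -0.69 for AGT1 and -1.11 for HPR1. The 1.5 h response in VP16 minus that in hy5 was -0.68 for GGAT1, -0.65 for AGT1, -0.64 for SHM1 and -1.10 for HPR1. The 4 h response in SRDX minus that in hy5 was -0.70 for CAT2, -0.77 for GGAT1, -0.89 for AGT1, -0.88 for GLDP1, -0.60 for GLDT, -0.93 for SHM1 and -1.03 for HPR1. HPR1 is the enzyme called in all 3 of these comparisons with every single library left out.

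Of the related genes, the 1.5 h response in OX minus that in hy5 was -0.52 for GOX2, -0.67 for GGAT2, -0.78 for BOU and -0.98 for MLS. The 4 h response in SRDX minus that in hy5 was -0.75 for GGAT2, -0.66 for GLDP2, -1.18 for GLU1, -0.65 for GS2 and -0.59 for PMDH2, the peroxisomal malate dehydrogenase. It was 1.26 for ICL and 1.45 for MLS, which are positive. The 1.5 h response in hy5 minus that in Col was 0.67 for GGAT2 and 0.75 for BOU. In libraries, BOU had 202, 163 and 154 CPM at 1.5 h and 48.1, 43.9 and 55.6 CPM in the dark in hy5, and 146, 105 and 94.5 CPM at 1.5 h and 55.5, 48.5 and 59.9 CPM in the dark in Col.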

How the results depend on the processing

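The number of enzymes called stayed within 1.5 times of the reported one in all 25 comparisons with edgeR, a pseudocount of 0.25, no filter, a mean of at least 5 CPM and median-of-ratios scaling, and no called difference changed sign under any alternative run. Of 225 differences of single enzymes, 22 changed sign under at least 1 alternative; none of these was called either way, and their reported values were at most about 0.1 in size. Among them was the GLDP1 response of VP16 against hy5, which became 0.07 without hy5 dark replicate 3. A fit on the compared groups alone called 1 in OX against hy5 at 1.5 h, 4 in VP16 against hy5 at 1.5 h, 1 in SRDX against hy5 in the dark (SHM1, adjusted p = 0.0325, in place of CAT2 at 0.1 and GLYK at 0.0542), 1 in SRDX against hy5 at 4 h, 3 in hy5 against Col at 1.5 h, 2 between 1.5 h and 4 h in SRDX, and 4 in the 4 h response of SRDX against hy5. With the replicate number as a block, the 1.5 h response of hy5 against Col gained 1 call, HPR1 (adjusted p = 0.045), and the response of VP16 against hy5 lost AGT1 (adjusted p = 0.053); the block changed no other call on the enzymes.

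With 1 library left out, the counts ranged from 4 to 6 in dark OX and 7 to 8 in dark VP16 against hy5, 0 to 2 in dark SRDX against hy5, 2 to 3 in OX and 4 to 7 in VP16 against hy5 at 1.5 h, 2 to 6 in SRDX against hy5 at 4 h, 3 to 5 in hy5 against Col at 1.5 h, 0 to 1 between 1.5 h and 4 h in SRDX, and 1 to 6 in VP16 against SRDX at 1.5 h. For responses, they ranged from 1 to 4 in OX and 2 to 4 in VP16 against hy5, 3 to 7 in SRDX against hy5 at 4 h, and 0 to 1 in hy5 against Col. Where this leaves 1 library in SRDX or in hy5 at 4 h, that library is assumed to vary like the other groups. Every enzyme had at least 1327 reads in each library. Leaving out a library was run for the enzymes and for the counts of related genes, not for single related genes.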
